A study of Mus musculus with 2 samples.

Results

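Cholesterol is made from acetyl-CoA through the mevalonate pathway. The genes described here are 8 of the 32285 genes counted in both libraries, taken by their symbols: Hmgcs1, Idi1, Fdps, Fdft1, Sqle, Cyp51, Sc5d and Insig1. Of these, 7 encode enzymes of the pathway and Insig1 encodes a protein that senses sterols. They were followed in regulatory T cells (Tregs), the Foxp3-expressing T cells that restrain immune responses. YFP+7AAD- cells, that is live cells with the reporter of Foxp3 expression, had been sorted from spleens of 7-day-old C57BL/6J mice and profiled by droplet single-cell RNA sequencing. There was 1 library of WT mice, which the study describes as Foxp3-Cre mice, and 1 library of KO mice (Zfp335fl/flFoxp3-Cre). In KO mice the Cre driven by Foxp3 removes Zfp335, a zinc finger transcription factor, from cells that express or have expressed Foxp3, and the number of mice per library is not stated. After filters at 300 genes and 5% mitochondrial transcripts and removal of marked doublets, 7540 WT and 12577 KO cells were kept.

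The order of the steps is as follows. HMG-CoA synthase (Hmgcs1) makes the substrate of the rate-limiting reductase. After mevalonate is formed, the isomerase Idi1 and farnesyl diphosphate synthase (Fdps) build the isoprenoid chain, which also serves protein prenylation and other branches. Squalene synthase (Fdft1) commits the chain to sterols, squalene epoxidase (Sqle) oxidizes squalene, and Cyp51 and Sc5d act late on the sterol ring. When sterols are low, the transcription factor SREBP2 is released from the endoplasmic reticulum and raises these genes together. Insig1 retains SREBP in the endoplasmic reticulum and is itself a SREBP target, and T cells are known to draw on this pathway when they grow and divide.

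All 8 are protein-coding genes, and their positions are given on GRCm38. Hmgcs1 (ENSMUSG00000093930) spans chr13:119690379-119708260 and Idi1 (ENSMUSG00000058258) spans chr13:8885501-8892451, both on the plus strand. Fdps (ENSMUSG00000059743) spans chr3:89093588-89101959 and Fdft1 (ENSMUSG00000021273) spans chr14:63145150-63179578, both on the minus strand. Sqle (ENSMUSG00000022351) spans chr15:59315077-59331192 and Insig1 (ENSMUSG00000045294) spans chr5:28071363-28078662, both on the plus strand. Cyp51 (ENSMUSG00000001467) spans chr5:4081145-4104746 and Sc5d (ENSMUSG00000032018) spans chr9:42251595-42264256, both on the minus strand. Only Fdps overlaps other annotated genes on its own strand (Gm43738 and Gm22935), so the counting of its transcripts could be split with them.

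RefSeq promoter windows were used for 5 of the 8 genes, and the 250 bases before the RefSeq start of each are printed because these genes are known to share regulatory elements. Capitals mark, on either strand, the letters TCACNCCAC (1 form of the sterol regulatory element), CCAAT (the box bound by NF-Y) and CACGTG (an E-box). The build is GRCm38.p6, and the sequences run 5′ to 3′ towards the gene.
Hmgcs1, chr13:119690101-119690350, plus strand: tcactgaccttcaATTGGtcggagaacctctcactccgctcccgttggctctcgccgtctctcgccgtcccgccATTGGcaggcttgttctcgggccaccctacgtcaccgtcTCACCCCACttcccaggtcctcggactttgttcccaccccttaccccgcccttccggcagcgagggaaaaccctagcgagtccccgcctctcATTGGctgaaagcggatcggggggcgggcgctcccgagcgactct
Idi1, chr13:8885356-8885605, plus strand: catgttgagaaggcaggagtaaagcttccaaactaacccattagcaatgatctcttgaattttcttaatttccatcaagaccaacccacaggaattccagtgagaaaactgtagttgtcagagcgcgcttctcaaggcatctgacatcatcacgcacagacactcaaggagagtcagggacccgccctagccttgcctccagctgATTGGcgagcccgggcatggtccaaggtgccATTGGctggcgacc
Cyp51, chr5:4104698-4104947, minus strand: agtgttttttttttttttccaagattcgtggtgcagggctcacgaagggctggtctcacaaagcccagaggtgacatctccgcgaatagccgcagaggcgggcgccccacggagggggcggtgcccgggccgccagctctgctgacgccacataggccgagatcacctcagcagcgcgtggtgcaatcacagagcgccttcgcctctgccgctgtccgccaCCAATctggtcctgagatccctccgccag
Sc5d, chr9:42264301-42264550, minus strand: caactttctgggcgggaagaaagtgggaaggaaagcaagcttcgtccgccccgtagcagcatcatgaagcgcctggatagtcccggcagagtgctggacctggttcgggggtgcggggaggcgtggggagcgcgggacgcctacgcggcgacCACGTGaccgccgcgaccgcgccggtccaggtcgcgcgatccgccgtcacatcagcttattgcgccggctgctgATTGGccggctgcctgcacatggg
Insig1, chr5:28071162-28071411, plus strand: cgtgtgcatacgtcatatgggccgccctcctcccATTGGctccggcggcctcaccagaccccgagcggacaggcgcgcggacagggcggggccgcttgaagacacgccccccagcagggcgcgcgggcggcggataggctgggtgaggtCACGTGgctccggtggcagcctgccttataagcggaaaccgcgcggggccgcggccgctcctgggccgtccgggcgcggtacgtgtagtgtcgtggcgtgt
All 5 windows held CCAAT, which was found in 33.8% of the 32851 promoter windows of this length. Hmgcs1 held it 3 times, and it was also the 1 window of the 5 with TCACNCCAC, 137 to 129 bases before the start, a motif present in 1.05% of all windows. In Sc5d and Cyp51 the CCAAT letters lay 24 and 29 bases before the start, and in Idi1 they lay at 45 and 14 bases. CACGTG was found in the windows of Insig1 and Sc5d and in 6.02% of all windows. Among 12 other enzymes of the pathway with windows, 11 held CCAAT and none held TCACNCCAC. These are matches of letters and not measured binding, and other forms of the sterol regulatory element were not searched for. Factor binding was not measured in these libraries.

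Transcript molecules were counted by their unique molecular identifiers (UMIs), and the counts of all cells of a state and library were summed and expressed as CPM, that is scaled to a fixed total of UMIs so that groups of unequal depth can be compared. The reads come from the 3′ end, so levels are compared between states and libraries for 1 gene and never between genes. With 1 library per genotype no test between genotypes was possible. All intervals are 95% intervals of counting error only, exact Poisson for a level and exact conditional binomial for a ratio. A gene was called past 1.5-fold only with at least 200 UMIs in the groups compared.

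The targeted gene was checked first. Zfp335 was at 8.11 CPM over all kept WT cells (395 UMIs) and at 1.05 CPM over all kept KO cells (51 UMIs). In resting cells it was at 9.51 CPM (96 UMIs) and 1.03 CPM (19 UMIs). The libraries differed in makeup and depth. Kept WT cells had a median of 4844 UMIs and kept KO cells of 2458, and 25 cell barcodes were present among the kept cells of both libraries. The resting Treg-like state held 2566 WT and 4926 KO cells, the activated state 723 and 984 and the S phase state 534 and 624. The effector Treg-like state held 1411 WT but 61 KO cells, so no KO to WT ratio is given for it. A further cluster of 557 WT and 288 KO cells carried effector and mitotic genes together and is called the cycling effector-gene cluster. The S phase state was mixed too, with all 14 mitotic and all 10 effector markers raised beside all 14 S phase markers. A shallow state named dysTreg-like, after the study's term for its dysfunctional Tregs, held 1045 WT and 3595 KO cells. All 8 markers of resting Tregs were raised in the resting cells, where the Foxp3 level was 64.8 CPM in WT and 58.2 CPM in KO. Of 10 effector markers in resting cells, 8 were past 1.5-fold lower in KO. Their summed level was 1181 CPM in WT and 1036 CPM in KO, so resting cells of the libraries were not alike in makeup. Haemoglobin transcripts, which come from red cells, took 0.0523% of UMIs in resting WT cells and 0.121% in resting KO cells. The summed level of 12 erythroid markers there was 548 CPM in WT and 1231 CPM in KO. Of the 12, 5 were past 1.5-fold higher in KO, 1 was past 1.5-fold lower and none was at 0. The summed level of 11 neutrophil markers was 407 and 278 CPM. The part of these transcripts in the ratios was not tested.

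In resting Treg-like cells all 8 genes had a higher level in KO than in WT, as did 3269 of the 7881 genes tested. For 4 of the 8 the excess went beyond counting error, a share that was not counted over all genes. Fdft1 and Fdps were past 1.5-fold, whereas over all 7881 genes tested 1.95% were called higher and 8.36% lower in KO. The median log2 ratio of KO to WT was 0.28 over the 8 genes and -0.08 over all genes tested. No member was called lower.

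Hmgcs1 was at 18.2 CPM in resting WT cells (184 UMIs) and at 22.8 CPM in resting KO cells (423 UMIs). The KO to WT ratio was 1.25 (1.05 to 1.5), an excess that stayed under 1.5-fold. Idi1 was at 9.51 CPM (96 UMIs) and 11 CPM (204 UMIs), with a ratio of 1.16 (0.904 to 1.49). For Idi1 the interval held 1, so the libraries were not told apart.

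Fdps was at 41.6 CPM in WT (420 UMIs) and 67.1 CPM in KO (1244 UMIs), a ratio of 1.61 (1.44 to 1.81). Fdft1 was at 11.2 CPM in WT (113 UMIs) and 23.9 CPM in KO (443 UMIs), a ratio of 2.14 (1.73 to 2.65). Fdft1 had the highest ratio of the 8 genes in resting cells, and its interval lay wholly above those of Hmgcs1, Idi1, Sqle, Cyp51, Sc5d and Insig1. Fdps and Fdft1 act next to each other, before and at the step that commits the chain to sterols.

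Of the steps from squalene on, Cyp51 was at 16.6 CPM in WT and 23.7 CPM in KO, with a ratio of 1.43 (1.19 to 1.71). Sqle was at 10.3 and 11.9 CPM, a ratio of 1.15 (0.908 to 1.47). Sc5d was at 23.1 and 25.5 CPM, a ratio of 1.10 (0.941 to 1.30). Only Cyp51 among these 3 had an interval above 1. The sensor Insig1 was at 12.2 CPM in WT and 14.3 CPM in KO, a ratio of 1.17 (0.944 to 1.47). Without the mitochondrial filter the ratio of Insig1 was 0.938 and that of Sqle 0.956, so 6 of the 8 genes were then above 1. With finer clusters the ratio of Insig1 was 1.47.

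**Figure D1:**
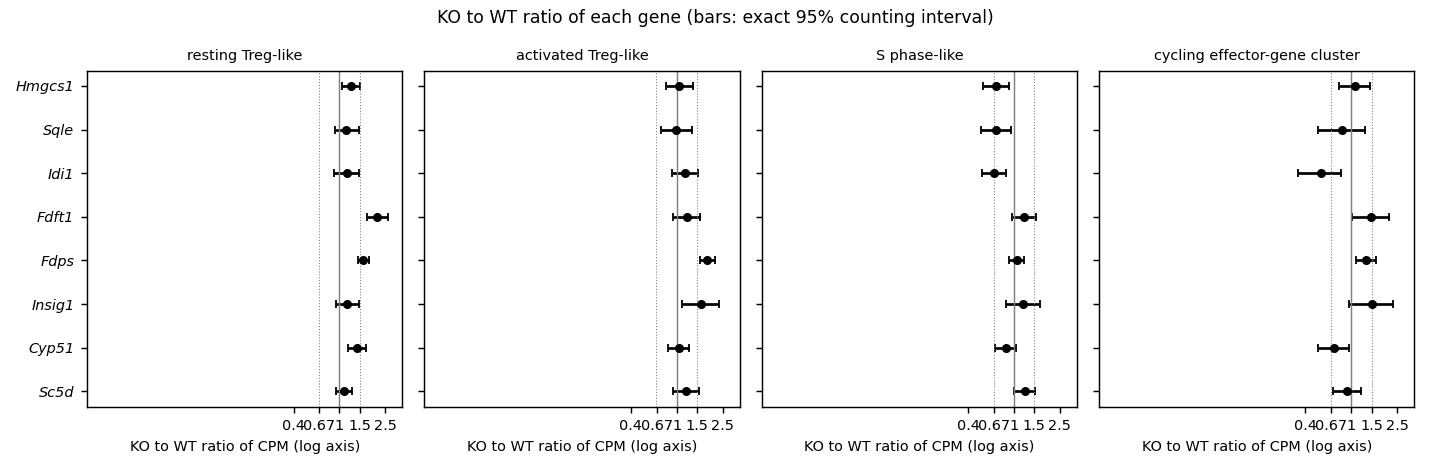
KO to WT ratio of CPM (x axis, log scale) for the 8 genes (y axis) in 4 T cell states, with points for the ratio, bars for the exact 95% counting interval, a solid line at 1 and dotted lines at 1.5-fold either way. In resting cells every point lies to the right of 1 and Fdft1 (2.14) is farthest, whereas in S phase cells Hmgcs1, Sqle and Idi1 lie to the left.

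The resting state held finer clusters in unequal proportions, so the ratios were also taken within each. In the largest, led by Gpr83 and Lta (793 WT and 2248 KO cells), the ratio was 1.58 (1.20 to 2.10) for Hmgcs1, 2.28 (1.69 to 3.12) for Fdft1, 1.64 (1.40 to 1.94) for Fdps and 1.59 (1.22 to 2.09) for Cyp51. In the second, where Dapl1 and Satb1 were among the leading genes (910 WT and 1527 KO cells), the same ratios were 0.831 (0.598 to 1.16), 1.48 (0.999 to 2.21), 1.10 (0.894 to 1.37) and 0.936 (0.644 to 1.37). All 8 genes were higher in KO in the first of these clusters and 4 of 8 in the second, where no interval excluded 1. The share of all genes higher in KO was not counted within these clusters. Whether these counts are particular to the 8 genes is therefore not known. The excess of Fdps, Hmgcs1 and Cyp51 in KO thus went beyond counting error in the first cluster and did not in the second, and the difference between the clusters was not tested. In a cluster led by interferon genes, held mostly by KO (94 WT and 892 KO cells), the Fdps ratio was 2.07 (1.23 to 3.75). In a cluster rich in nuclear RNA, held mostly by WT (803 and 238 cells), it was 1.68 (1.01 to 2.69).

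**Figure D2:**
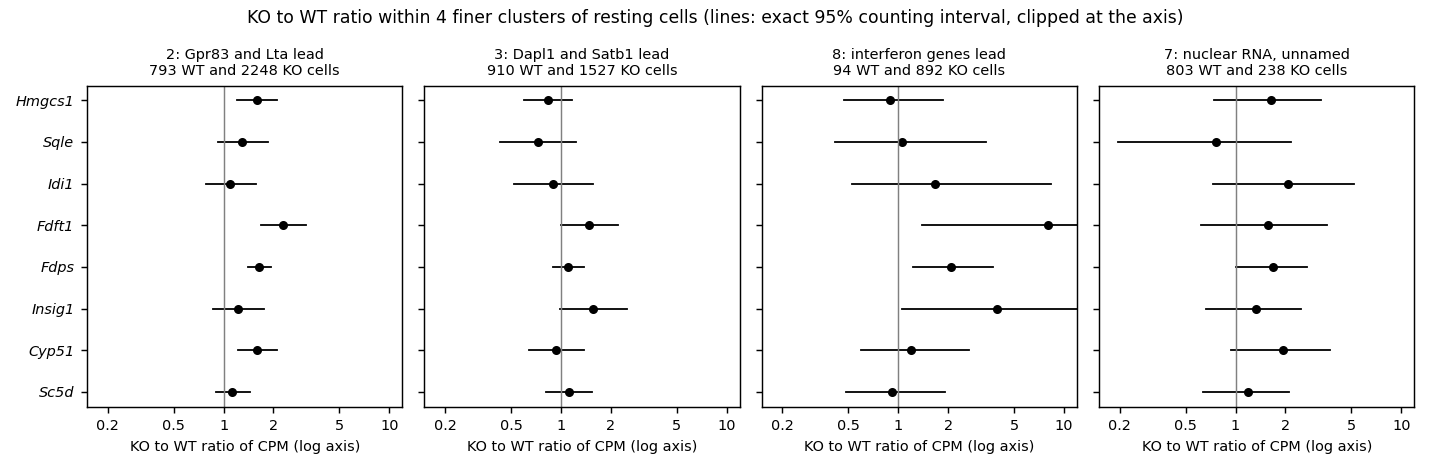
KO to WT ratio of CPM (x axis, log scale) for the 8 genes (y axis) within 4 finer clusters of the resting cells, with lines for the exact 95% counting interval, clipped where they leave the axis. In the first panel Fdft1 is at 2.28 and Hmgcs1 at 1.58, whereas in the second panel all 8 intervals cross 1.

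Activated Treg-like cells, which carry genes of recent receptor signaling and growth, showed a narrower pattern. Of the 6 genes with at least 200 UMIs there, Fdps alone was called higher in KO and none lower, against 3.06% of 5982 genes called higher and 8.32% called lower. Fdps was at 39.3 CPM in WT (253 UMIs) and 72.2 CPM in KO (561 UMIs), a ratio of 1.84 (1.58 to 2.14). Insig1 was at 7.30 CPM (47 UMIs) and 11.7 CPM (91 UMIs), a ratio of 1.61 (1.12 to 2.34), but missed the minimum of 200 UMIs. The ratio of Fdft1 was 1.22 (0.938 to 1.58) and that of Hmgcs1 1.05 (0.804 to 1.38). Sqle, Idi1, Cyp51 and Sc5d had ratios from 0.993 to 1.20, each with an interval that held 1. Activated cells of the libraries also differed in makeup. The summed level of 10 effector markers was 1971 CPM in WT and 969 CPM in KO, with 9 of the 10 past 1.5-fold lower in KO.

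The S phase-like state had all 14 S phase markers raised, and also all 14 mitotic and all 10 effector markers. In these cells no gene of the 8 was called past 1.5-fold, against 5.32% of 6245 genes called higher and 5.89% called lower. Hmgcs1 was at 19.8 CPM in WT (175 UMIs) and 14.0 CPM in KO (92 UMIs), a ratio of 0.705 (0.542 to 0.913). Idi1 was at 24.2 and 16.1 CPM, a ratio of 0.668 (0.524 to 0.847). Sqle was at 14.5 and 10.2 CPM, a ratio of 0.702 (0.515 to 0.951), with 128 and 67 UMIs, fewer in all than the minimum. These 3 genes were lower in KO by more than counting error but less than 1.5-fold or under the minimum, whereas Fdps (1.06, 0.914 to 1.22) and Fdft1 (1.22, 0.963 to 1.56) had intervals that held 1. Sc5d went the other way, at 21.5 and 26.6 CPM, a ratio of 1.24 (1.00 to 1.53) whose interval just excluded 1. Cyp51 (0.847, 0.687 to 1.04) and Insig1 (1.20, 0.852 to 1.69) were not told apart between the libraries. The S phase cells of the libraries were unlike in makeup. Their median depth was 14788 UMIs in WT and 8866 in KO, and the summed level of 10 effector markers was 4942 CPM in WT and 1483 CPM in KO. Within the finer S phase cluster held by both libraries (154 WT and 611 KO cells), the ratio was 1.14 (0.695 to 1.95) for Hmgcs1, 0.867 (0.506 to 1.56) for Sqle and 0.673 (0.459 to 1.01) for Idi1. Within that cluster the ratio of Hmgcs1 was on the other side of 1, with an interval that held 1, and that of Idi1 was close to its value in the whole state.

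In the cycling effector-gene cluster, 4 of the 8 genes passed 200 UMIs and none was called, against 6.80% of 4868 genes called higher and 8.89% called lower. Cyp51 was at 34.0 CPM in WT (234 UMIs) and 24 CPM in KO (56 UMIs), a ratio of 0.705 (0.517 to 0.948). Fdps was at 48.0 and 64.7 CPM, a ratio of 1.35 (1.10 to 1.64). Idi1 had 147 UMIs in WT and 27 in KO, a ratio of 0.541 (0.345 to 0.820). Fdft1 had 94 and 47 UMIs, a ratio of 1.47 (1.02 to 2.11). The libraries filled this cluster with unlike cells. The summed level of 10 effector markers was 7063 CPM in WT and 2422 CPM in KO, all 10 past 1.5-fold lower, and that of 14 mitotic markers was 2388 and 4949 CPM, with 12 past 1.5-fold higher. Of its finer clusters, an effector one held 420 WT and 15 KO cells and a mitotic one 159 WT and 279 KO cells. Within the mitotic one the ratio was 0.736 (0.430 to 1.24) for Idi1, 0.741 (0.505 to 1.08) for Cyp51, 1.83 (1.10 to 3.09) for Fdft1 and 2.29 (1.70 to 3.12) for Fdps, so the lower values of Idi1 and Cyp51 were there within counting error. Fdps was higher in KO in 3 of the 4 states by more than counting error, and in S phase cells its interval held 1.

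In dysTreg-like cells the median depth was 688 UMIs for WT and 1369 for KO, and haemoglobin took 0.554% and 1.40% of their UMIs. Fdps was at 45.7 CPM in WT (40 UMIs) and 77.0 CPM in KO (439 UMIs), a ratio of 1.69 (1.22 to 2.39). Insig1 was at 7.99 CPM (7 UMIs) and 20.7 CPM (118 UMIs), a ratio of 2.59 (1.22 to 6.58). The other 6 genes had intervals that held 1. The libraries lay in different finer clusters here, one of 101 WT and 3253 KO cells and one of 923 WT and 120 KO cells. In the first, with 1 to 6 WT UMIs per gene, Insig1 had a ratio of 0.913 (0.304 to 4.50), and Fdps one of 3.41 (1.16 to 16.6). The ratios of Hmgcs1, Sqle and Fdft1 were also above 1 and those of Idi1, Cyp51 and Sc5d below 1, all with intervals that held 1. In the second Insig1 had a ratio of 5.65 (1.05 to 30.3) from 4 UMIs in each library. Over all T-lineage cells the ratio was 1.58 (1.49 to 1.68) for Fdps, 1.55 (1.39 to 1.72) for Fdft1 and 1.46 (1.29 to 1.66) for Insig1, and from 0.913 to 1.06 for the other 5 genes. Those sums mix states that the libraries hold in different shares.

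Levels also differed between states within a library. In WT the isomerase Idi1 was at 8.21 CPM (6.51 to 10.2) in effector cells, 9.51 (7.70 to 11.6) in resting, 16.8 (13.8 to 20.2) in activated, 21.4 (18.1 to 25.1) in cycling effector-gene and 24.2 (21.0 to 27.6) in S phase cells. Of neighbours in this order, only resting and activated cells had intervals that did not overlap. Cyp51 followed a like order in WT, from 16.6 CPM (14.2 to 19.4) in resting to 34.0 CPM (29.8 to 38.7) in cycling effector-gene cells. Effector (21.1), activated (26.7) and S phase cells (27.7 CPM) lay between.

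Against resting WT cells, S phase WT cells had ratios of 2.54 (1.99 to 3.27) for Idi1, 1.66 (1.36 to 2.04) for Cyp51 and 1.51 (1.17 to 1.95) for Fdft1. These were the 3 of the 7 genes passing 200 UMIs that were called higher, against 20.9% of 7108 genes. In activated WT cells Idi1 (1.76, 1.33 to 2.35) and Cyp51 (1.60, 1.29 to 2.00) were called higher of 6 genes that passed, against 16.0% of 6723 genes. With finer clusters the ratios stayed close, at 2.40 for Idi1, 1.61 for Cyp51 and 1.47 for Fdft1 in S phase WT cells and at 1.71 for Idi1 and 1.59 for Cyp51 in activated WT cells. Of these only Cyp51 in activated cells was called, since the others had fewer than 200 UMIs in those smaller groups. In effector WT cells none of 7 was called higher, against 7.75% of 7164 genes. Insig1 went the other way, at 12.2 CPM in resting and 7.30 CPM in activated WT cells, a ratio of 0.599 (0.419 to 0.845), with 123 and 47 UMIs. With finer clusters this ratio of Insig1 was nearer to 1, at 0.797, from 74 UMIs in resting and 49 in activated WT cells. The WT cluster rich in nuclear RNA, which was then no longer part of the resting state, had Insig1 at 21.7 CPM. In KO the ratio of Insig1 was 0.820 in the main setting. Sc5d was also lower in activated than in resting WT cells, at 15.8 and 23.1 CPM, a ratio of 0.686 (0.538 to 0.870).

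In the KO library, activated cells had Idi1 at 19.7 CPM against 11 CPM in resting, a ratio of 1.79 (1.44 to 2.22), and this was the 1 gene of 8 called higher, against 16.4% of 7554 genes. In S phase KO cells none of 8 was called higher, against 17.5% of 7543 genes. There Hmgcs1 was called lower than in resting KO cells, at 14.0 and 22.8 CPM, a ratio of 0.613 (0.484 to 0.770), against 16.5% of genes called lower. In WT the same ratio of Hmgcs1 was 1.09. With finer clusters it was 0.662 in WT, from 20 UMIs in S phase cells, and 0.615 in KO, so the libraries were then alike. Fdps was at 52.3 CPM in S phase and 67.1 CPM in resting KO cells, a ratio of 0.780 (0.690 to 0.879). In WT the same ratio was 1.19 (1.04 to 1.37), so Fdps lay above resting in WT S phase cells and below resting in KO S phase cells. With finer clusters the WT ratio was 0.974.

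**Figure D3:**
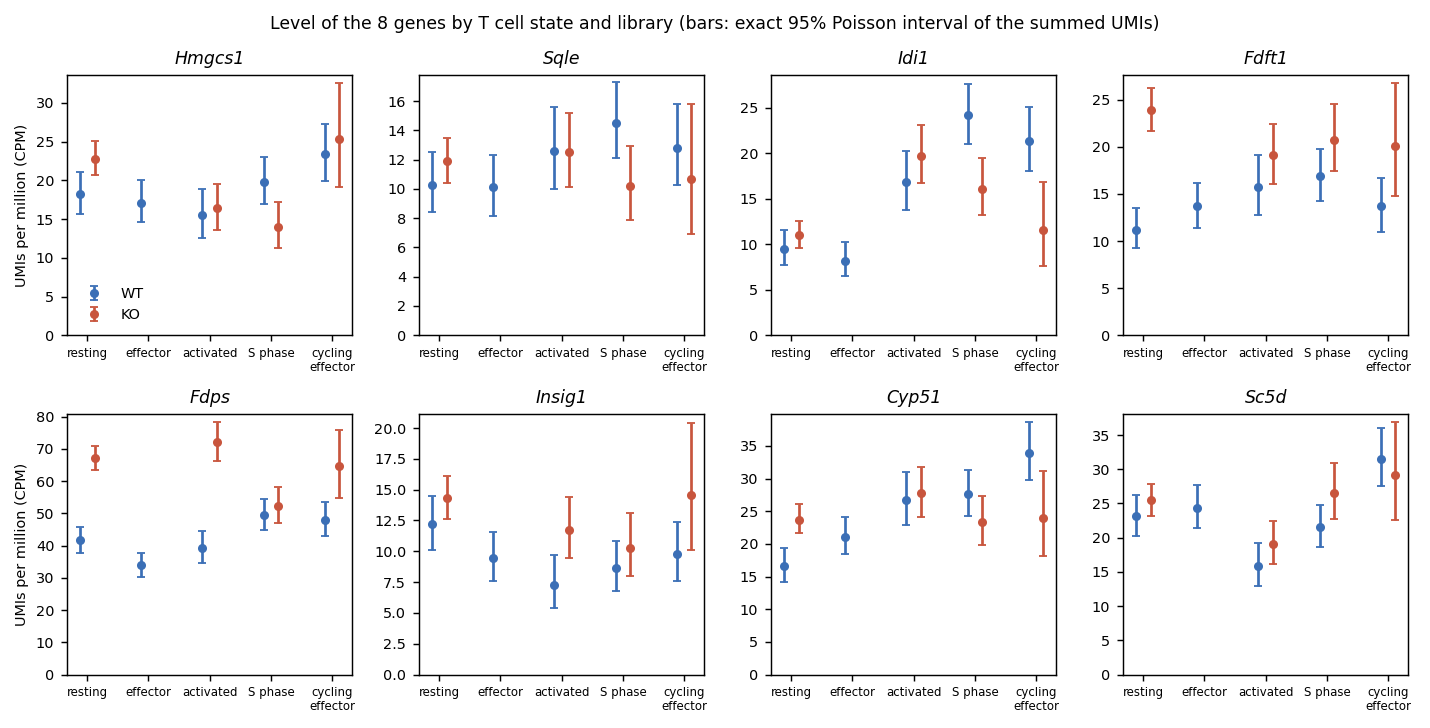
Level in CPM (y axis, from 0, with its own scale per gene) of each of the 8 genes in 5 T cell states (x axis), with points for the summed cells of 1 library (WT blue, KO red) and bars for the exact 95% Poisson interval. Fdps in resting cells is at 41.6 in WT and 67.1 in KO with bars well apart, and Idi1 in WT climbs from 9.51 in resting to 24.2 in S phase cells. KO effector cells (61 cells) are not drawn.

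The rest of the pathway was read from 7 lists of genes in resting cells, counting genes with at least 200 UMIs. Over all 7881 genes tested there, 1.95% were called higher and 8.36% lower in KO, with a median log2 ratio of -0.08. Of the 8 genes for the condensation and mevalonate steps, 8 passed, 3 were called higher in KO and none lower, and the median log2 ratio was 0.26. The third gene beside Fdps and Fdft1 was Mvd, the decarboxylase that precedes Idi1, at 21.4 CPM in WT and 38.7 CPM in KO with a ratio of 1.81 (1.55 to 2.12). Mvd was also higher in activated cells, with a ratio of 1.77 (1.39 to 2.26). Of 12 genes for the steps from squalene to cholesterol, 9 passed and none was called, with a median of 0.14. Within that list Lbr, a sterol reductase and lamin receptor of the nuclear envelope, was lower in KO (0.726, 0.671 to 0.786), and Msmo1, the methylsterol monooxygenase, was higher (1.29, 1.03 to 1.63).

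The regulators did not share the direction of the enzymes. Of 7 genes for sterol sensing, 7 passed and none was called, with a median of -0.20 against -0.08 over all genes tested. Scap, which escorts SREBP to the Golgi, had a ratio of 0.718 (0.583 to 0.886), and the proteases that release SREBP, Mbtps1 and Mbtps2, had ratios of 0.771 (0.689 to 0.864) and 0.715 (0.544 to 0.942). Srebf2, the gene of SREBP2, was at 65.8 CPM in WT and 57.2 CPM in KO, a ratio of 0.870 (0.788 to 0.960). Of 9 genes for transport, storage and uptake, 6 passed, none was called higher and 2 were called lower, against 8.36% of all genes called lower. The 2 genes called lower were Osbp, a sterol carrier between membranes (0.551, 0.461 to 0.660), and Soat1, which esterifies cholesterol for storage (0.630, 0.526 to 0.755). Npc2, the lysosomal cholesterol carrier, was higher at 393 CPM in WT and 520 CPM in KO, a ratio of 1.32 (1.28 to 1.37).

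No gene was called in the other 3 lists, whose medians stand beside one of -0.08 over all genes tested. Of 6 LXR targets and efflux genes 4 passed, with a median of -0.15, and Mylip had a ratio of 0.769 (0.636 to 0.932). Of 10 genes for non-sterol branches, such as prenylation and dolichol synthesis, 8 passed, with a median of -0.18, and Rabggtb had a ratio of 0.690 (0.537 to 0.888). Of 12 genes for fatty acid synthesis, which SREBP also drives, 7 passed, with a median of -0.35. Among those Acss2 (0.730, 0.620 to 0.860) and Elovl6 (0.734, 0.576 to 0.936) were lower in KO, whereas Aacs, which activates acetoacetate in the cytosol, was higher (1.42, 1.05 to 1.94). In S phase cells Pmvk, the kinase before Mvd, was called lower in KO with a ratio of 0.607 (0.511 to 0.719), as were Stard4 (0.559, 0.441 to 0.705) and Osbp (0.656, 0.501 to 0.852). Over all 6245 genes tested there, 5.89% were called lower.

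**Figure D4:**
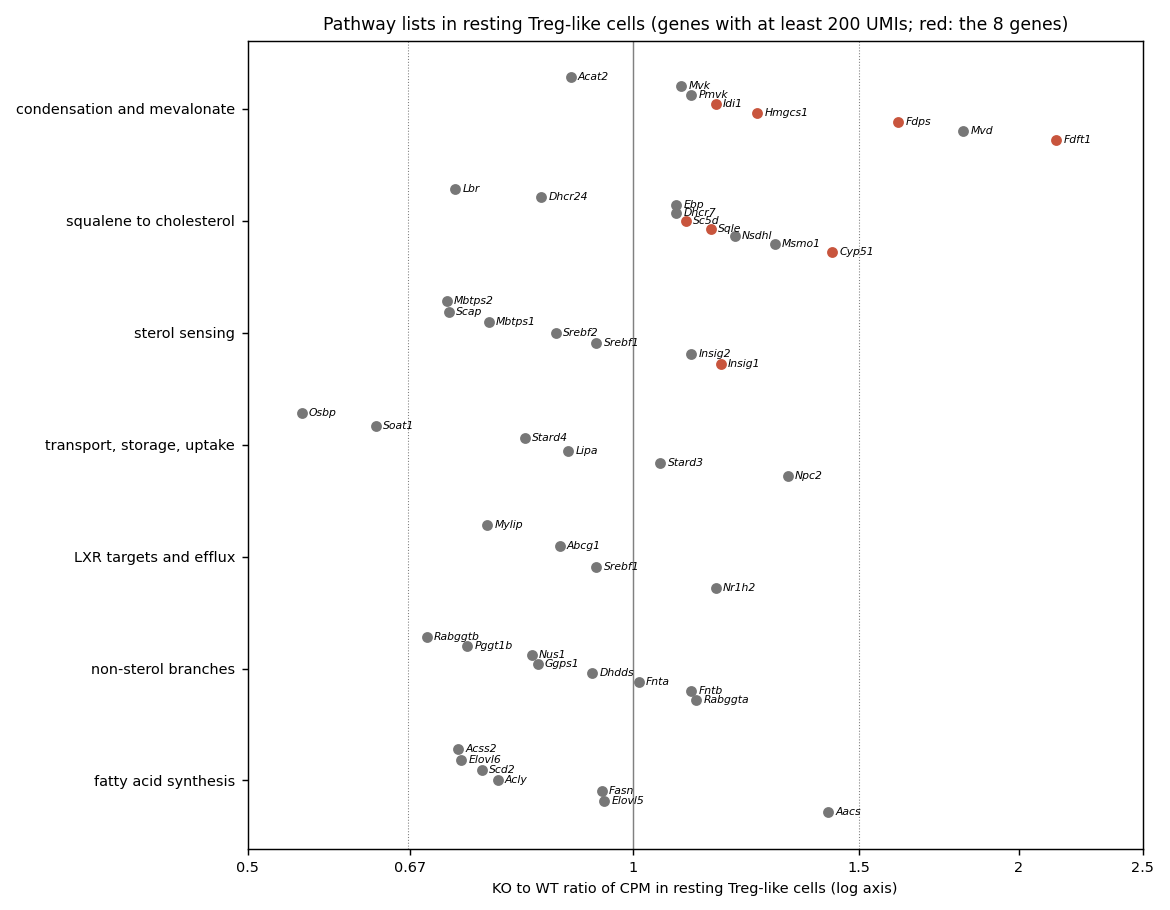
KO to WT ratio of CPM in resting Treg-like cells (x axis, log scale) for the genes of 7 pathway lists (rows) with at least 200 UMIs, with Hmgcs1, Idi1, Fdps, Fdft1, Sqle, Cyp51, Sc5d and Insig1 in red and dotted lines at 1.5-fold either way. Fdps, Mvd and Fdft1 lie beyond the right dotted line and Osbp and Soat1 beyond the left one.

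The next question was whether single cells that had a transcript of one gene also had more of the others. Cells were thinned to 1000 UMIs each, so that deep cells did not count more, and the result was averaged over 20 draws. In resting WT cells, 44.8 of 2492 thinned cells had a UMI of Hmgcs1 on average. They held 27.6 UMIs of the other 7 genes per 100 cells, against 11.7 in cells without one, a ratio of 2.36 (1.17 to 4.05). In resting KO cells, 105 of 4779 cells had a UMI of Hmgcs1, with 43.2 against 16.4 UMIs of the other 7 genes per 100 cells, a ratio of 2.63 (1.89 to 3.53). The same ratio was past 1.5 for 3.24% of 1792 genes tested in WT and for 2.55% of 3064 genes in KO. Single draws ranged from 0.836 to 4.20 in WT and from 2.13 to 3.36 in KO. With another gene in place of Hmgcs1, the WT ratio was 3.32 (1.46 to 6.21) for Idi1, 2.22 (0.883 to 4.62) for Sqle and 1.62 (0.908 to 2.78) for Fdps, so the last pair did not exclude 1. The KO ratio was 3.68 (2.55 to 5.28), 3.03 (1.98 to 4.43) and 2.16 (1.67 to 2.75) for the same genes. Gene by gene, with 0.5 added to each sum, Fdps had the highest ratio of all genes tested in KO, at 2.18, followed by Zfp106 at 1.95. Mlf2, Sept11, Rock2, Ppp1cb, 2510002D24Rik, Mrps36 and Lta came lower, down to 1.78. In WT none of the 7 genes reached the minimum of 200 UMIs at this depth, and the highest ratios were those of Cblb (2.23), Ddt (2.18) and Rel (2.17), then Rcc2, Dok2, Fam32a, Wnk1, Igflr1, Erbin and Gripap1, down to 1.77.

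Deeper counts narrowed the intervals. With cells thinned to 2000 UMIs the ratio was 2.63 (1.88 to 3.58) for WT and 2.77 (2.32 to 3.31) for KO. With all UMIs, as CPM, it was 2.79 (2.40 to 3.22) for WT and 2.56 (2.35 to 2.78) for KO, although cells with Hmgcs1 were then deeper (medians of 4432 against 3762 UMIs in WT and 4441 against 3336 in KO). In KO all 7 genes passed 200 UMIs and exceeded 1.5, against 1.41% of 6669 genes. In WT Fdps and Sc5d passed and Fdps exceeded 1.5, against 1.46% of 5260 genes. Idi1 had a ratio of 6.10 (3.84 to 9.49) in WT and 4.32 (3.15 to 5.87) in KO, Cyp51 one of 4.26 (2.93 to 6.09) and 3.63 (2.91 to 4.49), and Sqle one of 3.04 (1.77 to 5.00) and 3.46 (2.51 to 4.71). Fdft1 was at 2.58 (1.49 to 4.26) and 3.0 (2.38 to 3.75) and Fdps at 3.01 (2.33 to 3.85) and 2.20 (1.89 to 2.54). Insig1 (1.78, 0.961 to 3.06 in WT and 2.08, 1.48 to 2.87 in KO) and Sc5d (1.07, 0.623 to 1.73 and 1.53, 1.15 to 1.99) had the lowest ratios in both libraries. Of the 5 promoter windows printed above, only that of Hmgcs1 held the letters TCACNCCAC. All 5 held CCAAT, as did 33.8% of all windows. No window was printed for Sqle, Fdft1 and Fdps, and a link between these letters and co-detection was not tested.

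At 2000 UMIs the ratio was also taken within finer clusters. In the cluster led by Gpr83 and Lta it was 3.01 (1.73 to 4.85) for WT and 2.79 (2.23 to 3.49) for KO, and 2.48 (1.38 to 3.98) and 2.41 (1.41 to 3.78) in the cluster with Dapl1 and Satb1. It was 2.74 (1.74 to 4.02) in KO cells of the interferon cluster. In WT cells of the cluster rich in nuclear RNA it was 2.44 (0.983 to 4.74), which did not exclude 1. No excess was measured in the finer dysTreg-like cluster of KO, at 0.958 (0.446 to 1.75). In the other states the values at 2000 UMIs were 1.80 (1.10 to 2.93) in effector WT cells, 1.70 (0.814 to 3.52) in activated WT and 1.64 (0.958 to 2.63) in activated KO cells. They were 1.51 (0.660 to 2.87) and 1.41 (0.657 to 3.10) in S phase cells of WT and KO, and 1.29 (0.591 to 2.36) and 1.61 (0.644 to 3.53) in the cycling effector-gene cluster. At this equal depth, and with Hmgcs1, the interval of effector cells was the only one of these 7 to exclude 1. All 7 overlapped that of resting cells of the same library. With all UMIs the values were 1.81 (1.55 to 2.11) in activated WT and 1.38 (1.21 to 1.57) in activated KO cells, and 1.51 (1.35 to 1.68) and 1.29 (1.10 to 1.51) in S phase cells, all below the intervals of resting cells. A difference from resting cells was thus seen with all UMIs. In thinned cells all 7 values also lay below that of resting cells of the same library, but with fewer UMIs and overlapping intervals. Depth differs between those states, and its part in the difference was not tested. At 2000 UMIs with Idi1 in place of Hmgcs1, activated WT cells excluded 1 (2.39, 1.15 to 4.30). So did KO cells of the cycling effector-gene cluster (3.34, 1.22 to 6.69, from 5.75 cells with Idi1). Effector WT cells (1.92, 0.978 to 3.58) and the rest of those 7 did not. With Fdps only effector WT cells excluded 1 (1.99, 1.33 to 2.84), and with Sqle none did.

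**Figure D5:**
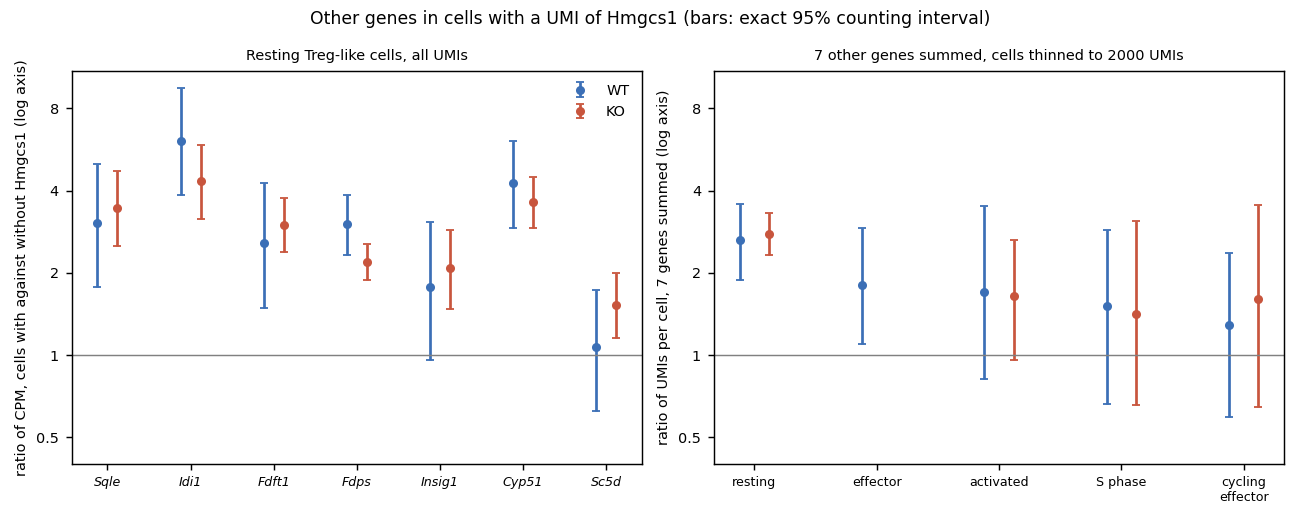
Ratio between cells with and without a UMI of Hmgcs1 (y axes, log scale), with bars for the exact 95% counting interval (WT blue, KO red). Left, CPM of each of the 7 other genes in resting cells, all UMIs, where Idi1 is highest at 6.10 in WT and 4.32 in KO. Right, UMIs per cell of the 7 genes summed, cells thinned to 2000 UMIs, in 5 states, where resting cells are at 2.63 and 2.77.

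Across the 12 combinations of 6 T cell states and 2 libraries, the 8 genes did not share 1 profile. The Pearson r of each gene's log2 CPM with the mean of the other 7 ran from -0.16 for Sqle to 0.66 for Fdps. Some of these points rest on few UMIs, such as KO effector and WT dysTreg-like cells, and points of 1 library share its sequencing. Of 9965 genes compared, those outside the lists with the highest r with the members' mean profile were Gm9774 (0.83), Rgcc (0.81) and Oat (0.76), then Zfp706, Snrpc, Zcrb1, Mrpl39, Rrn3, Kcmf1 and Atg3, down to 0.72. Gm9774 had only 213 UMIs in all, against 2332 for Rgcc and 2066 for Oat. These r values are the highest picked from 9965 genes over 12 points, and whether they exceed chance was not tested.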

How the data were processed

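Per the labels and values, the deposited 10x matrices are unnormalized UMI counts for each gene in each barcode. Cell Ranger 5.0.1 and mm10 are named in the submitters' processing notes, and barcodes that fail the authors' cell filters are still in the files. Deposited barcodes numbered 14524 in WT (64567991 UMIs) and 18134 in KO (65480052 UMIs). Barcodes with under 300 genes or over 5% mitochondrial UMIs were left out, as were the 5% of WT and 8% of KO barcodes with the highest doublet score, computed against simulated doublets. These shares follow the study's doublet counts. Its text gives them the other way round. Counts were scaled to 10000 per cell, log transformed and reduced to 30 principal components of 2000 variable genes without the genes on the lists. A graph of 20 neighbours per cell was partitioned with Leiden (igraph 0.11.9, numpy 2.4.6, scipy 1.17.1), with resolution 0.5 for states and 1.0 for finer clusters. A state was named where at least 3 markers and 66% of a list were raised 1.5-fold over the median of the other clusters and its markers led among the 10 leading genes. That rule was set after the data were seen. The 8 genes, the lists and the alternatives were chosen with earlier results of these data known. Named were all 8 genes, up to 4 genes per list farthest from a ratio of 1, the 10 genes with the most similar profile and the 10 with the highest co-detection. The lists do not hold every gene of the pathway, and 1 gene that the last rule names is not reported here. Ratio code was tested on simulated data. Gene positions are from GENCODE vM21 and promoter windows from RefSeq.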

Additional observations from a re-analysis of the deposited data

Results flagged for a closer look

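For 2 genes the KO to WT ratio lay above 1 in resting cells and below 1 in another state, each by more than counting error. Hmgcs1 had a ratio of 1.25 (1.05 to 1.5) in resting Treg-like cells and of 0.705 (0.542 to 0.913) in S phase-like cells. That S phase ratio was 0.929 with cells thinned to 1000 UMIs and 0.833 as the mean of single-cell CPM. It ran from 0.696 to 0.722 under the other alternatives that kept the same clusters. Cyp51 had a ratio of 1.43 (1.19 to 1.71) in resting Treg-like cells and of 0.705 (0.517 to 0.948) in the cycling effector-gene cluster. With 1 library per genotype the difference between the states was not tested. In the finer S phase cluster the ratio of Hmgcs1 was 1.14 (0.695 to 1.95), and in the finer mitotic-like cluster (159 WT and 279 KO cells) that of Cyp51 was 0.741 (0.505 to 1.08).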

How the results depend on the processing

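No paired analysis was possible because each genotype had 1 library, and for the same reason no replicate could be left out. The direction of the members' median KO to WT ratio kept its side in resting and activated cells under all 7 alternatives tried (no doublet removal, no mitochondrial filter, mean of single-cell CPM, CPM without haemoglobin, ribosomal and mitochondrial genes, scaling by the median gene ratio, finer clusters and cells thinned to 1000 UMIs). In S phase cells it went from -0.08 to 0.15 with finer clusters and to 0.01 with the mean of single-cell CPM. The number of members called higher in resting cells fell from 2 to 1 at 1000 UMIs, where 1 member passed, and to 1 at 2-fold. In activated cells it went from 1 to 2 at 50 UMIs, and to 0 at 1000 UMIs, where no member passed, and to 0 at 2-fold. In the cycling effector-gene cluster 1 member was called higher and 1 lower at 50 UMIs, against 0 and 0. With finer clusters the members called above resting in WT fell from 3 to 0 in S phase cells and from 2 to 1 in activated cells. The ratios of Idi1 and Cyp51 stayed at 2.40 and 1.61 in S phase and 1.71 and 1.59 in activated cells, and the calls were lost to the minimum of 200 UMIs in smaller groups. Fdft1, at 1.47 in S phase cells, missed both limits. In the same setting the KO to WT ratio of Hmgcs1 in S phase cells was 1.12. The WT ratios of S phase to resting were then 0.974 for Fdps, 1.00 for Insig1 and 0.662 for Hmgcs1, which was at 1.09 in the main setting. Without the mitochondrial filter the resting KO to WT ratios of Insig1 and Sqle were 0.938 and 0.956. The cause of these shifts was not tested. Co-detection in resting cells, 2.36 in WT and 2.63 in KO with Hmgcs1, was 3.32 and 3.68 with Idi1, 2.22 and 3.03 with Sqle and 1.62 and 2.16 with Fdps in its place, and the WT intervals with Sqle and Fdps held 1. The co-detection with all UMIs and within finer clusters was added after the data were seen.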
